A study of Homo sapiens with 6 samples.

Results

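The genes described here are the receptors, inhibitors and transcription factors of the Hedgehog pathway in human lung fibroblasts: *PTCH1*, *SMO*, *BOC*, *GAS1*, *HHIP*, *SUFU*, *GLI1*, *GLI2* and *GLI3*. They were chosen by symbol, as 9 of the 58676 gene identifiers in the count table, and 8 of the 9 reached a sum of 10 counts over all libraries. *HHIP* did not and is given as not measured. The cells were MRC5, an established human lung fibroblast line, grown in medium with serum and then kept for 24 h in conditioned media (CM) from a human alveolar epithelial type II line, ATIIER:KRASV12. In that line 4-hydroxytamoxifen (4-OHT) switches on RAS signaling through a KRASV12 protein fused to a hormone receptor domain. The CM came from control cells of this line in 3 libraries (control ATII CM) and from 4-OHT-treated cells in the other 3 (4-OHT ATII CM). Both groups therefore share the fibroblast line, the epithelial line and the exposure time. No group had 4-OHT without RAS activation, so effects of 4-OHT carried in the CM and of RAS-activated cells cannot be told apart. The comparison asks whether the fibroblasts' Hedgehog machinery differed between the CM of RAS-activated and of control epithelial cells.

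In Hedgehog signaling, a secreted ligand binds PTCH1, which otherwise holds the membrane protein SMO inactive in the primary cilium. BOC and GAS1 are co-receptors that help the ligand bind, and HHIP is a surface protein that takes up ligand. Active SMO frees the GLI transcription factors from SUFU: GLI2 is the main activator, GLI3 acts largely as a repressor in its cleaved form, and GLI1 is an activator that is itself made in response to the pathway. *GLI1*, *PTCH1* and *HHIP* transcripts are the customary readouts of pathway activity. In the lung, epithelial cells make the ligand during development and the fibroblasts around them receive it.

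The receptor *PTCH1* is a GLI target, and its upstream sequence is shown first because it holds the one exact GLI site found. The sequences are 250 bases before annotated starts, taken from RefSeq on GRCh38.p14, each read 5′ to 3′ on the gene's own strand, and printed without bases inside the gene's exons. The table holds 13 such starts for 7 of the 9 genes, and has no entry for *GLI1* and *GLI3*. The GLI consensus GACCACCCA and its reverse complement TGGGTGGTC were searched on both strands, and a match is marked in capitals. The PTCH1 stretch lies on the minus strand at chr9:95509267-95509516, and its match begins 172 bases before the start. The SMO stretch, chr7:129188383-129188632, and the BOC stretch, chr3:113211307-113211481, both on the plus strand, are shown because these are the members whose transcripts rose. Neither holds the site.
PTCH1: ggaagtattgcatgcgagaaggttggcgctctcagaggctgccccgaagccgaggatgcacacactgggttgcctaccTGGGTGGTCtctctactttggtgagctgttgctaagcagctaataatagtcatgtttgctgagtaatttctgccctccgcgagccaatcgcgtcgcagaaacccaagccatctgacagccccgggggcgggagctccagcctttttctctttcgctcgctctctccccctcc
SMO: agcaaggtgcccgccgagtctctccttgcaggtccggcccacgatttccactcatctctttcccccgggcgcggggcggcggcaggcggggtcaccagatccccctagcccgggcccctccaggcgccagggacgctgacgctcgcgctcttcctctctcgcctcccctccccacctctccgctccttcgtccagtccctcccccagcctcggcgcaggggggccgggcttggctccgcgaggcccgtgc
BOC: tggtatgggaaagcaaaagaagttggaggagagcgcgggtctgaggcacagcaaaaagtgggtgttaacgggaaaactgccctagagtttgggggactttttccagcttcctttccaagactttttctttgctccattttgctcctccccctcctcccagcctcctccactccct
Of all 35116 promoter windows of this length, 70 (0.199%) held the exact site. With 1 mismatch allowed, 2039 (5.81%) held it, among them 2 of the 13 windows of these genes, both of *PTCH1*. The match with 1 mismatch lies in another *PTCH1* window, which is not printed. Matches describe letters in the windows searched, with no measure of GLI binding.

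Read counts on genes summed to between 17691849 and 26389449 per library. Replicate 2 of control ATII CM, which had the smallest total, stood apart on the second principal component, which held 22.5% of the variance (−15.9, against −2.34 to 11.3 in the other 5). Without it, 834 genes rather than 527 were called lower and 696 rather than 563 higher. Fibroblast markers were abundant (*COL1A1*, 1661 to 1876 RPKM). *PECAM1* and *CDH5* of endothelial cells, *CD3E* of T cells and *SFTPA1* and *NKX2-1* of alveolar epithelium had no count, and *EPCAM* did not pass 0.223 RPKM in any library. The keratin gene *KRT19*, also an epithelial marker, was at 2.40 to 3.81 RPKM, a range that spans the levels of *GLI3*, and *KRT7* was at 0.290 to 0.421 RPKM. Levels are given as RPKM, reads scaled to the length of the gene's merged exons and to library size after TMM. The merged length counts every annotated exon, whether or not these cells use it, so comparisons between genes depend on the annotation. Groups were compared with edgeR's quasi-likelihood test, with Benjamini-Hochberg adjustment over all 19072 genes tested and a call at an adjusted p below 0.05. The labels do not say whether the 3 libraries of a group came from separate cultures. The p values weigh a group difference against the spread between these libraries, whatever its source.

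*BOC* and *SMO* rose in 4-OHT ATII CM, and no measured receptor or GLI gene was called lower. These are 2 of 8 genes called higher, where 2.95% of all genes tested were called higher, and 0 of 8 called lower, where 2.76% were. The other 6 did not pass the test. Among them *GLI1* and *GAS1* had non-overlapping groups, whereas *PTCH1*, *SUFU*, *GLI2* and *GLI3* overlapped. In all, 4 of the 8 had groups that did not overlap, beside 22.1% of all genes, and 4 had an unadjusted p below 0.05, beside 17.3%. The median log2 fold change was 0.05 over the 8 and −0.0020 over all genes.

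**Figure D1:**
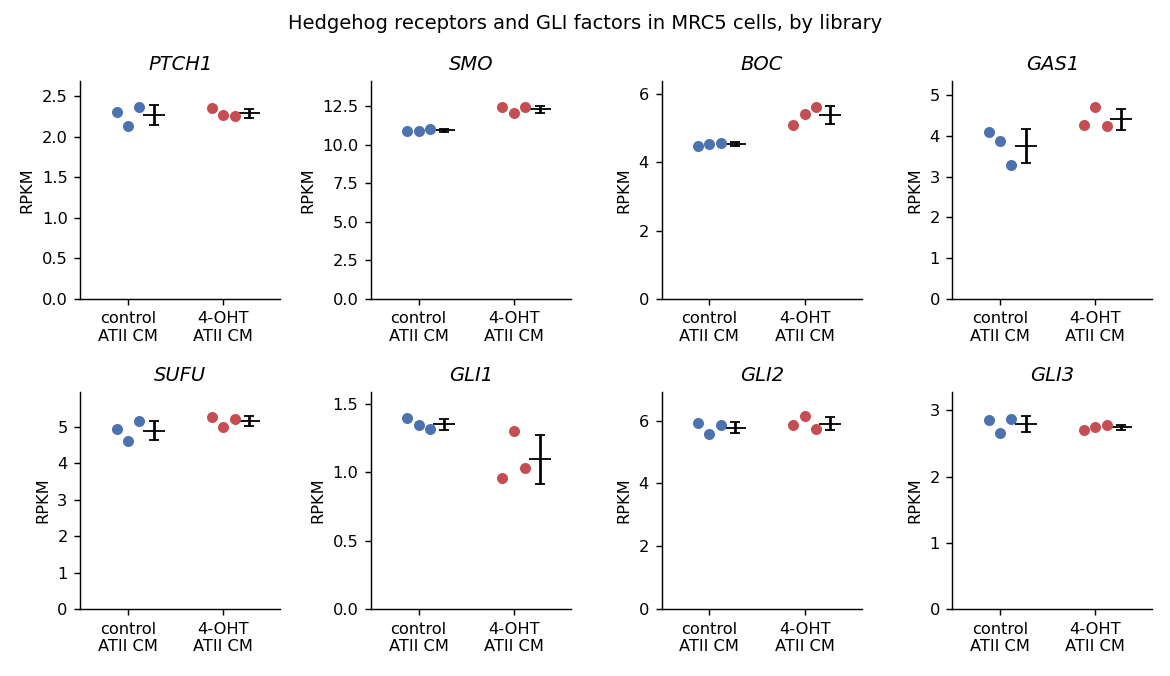
RPKM of each measured gene in the 3 libraries of control ATII CM (blue) and of 4-OHT ATII CM (red), with 1 point per library and the mean with its SD in black beside them, on axes that start at 0. The red points of *BOC*, *SMO* and *GAS1* all lie above the blue points, those of *GLI1* all lie below, and the points of the other 4 genes overlap.

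*BOC* (ENSG00000144857, chromosome 3, 113211003 to 113287459 on GRCh38) encodes a co-receptor of the immunoglobulin superfamily that binds the ligand beside PTCH1. Its level was 4.49, 4.55 and 4.58 RPKM in replicates 1 to 3 of control ATII CM and 5.11, 5.42 and 5.62 RPKM in those of 4-OHT ATII CM. Each of the latter was above each of the former, and control ATII CM had little spread of its own (4.54 ± 0.0483 RPKM, against 5.39 ± 0.261 RPKM in 4-OHT ATII CM, SD, n = 3 each). Its log2 fold change was 0.25 (SE 0.0445, edgeR adjusted p = 0.0032), a level 18.8% higher with a 95% interval of 11.2% to 26.8%. *BOC* stayed called in all 13 alternative settings, with adjusted p from 3.01e-06 to 0.0337. The exons of *BOC* share 513 bases (4.97% of their length) with *CFAP44*, a gene on the other strand, which had 14 to 49 counts per library where *BOC* had 840 to 1527.

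*SMO* (ENSG00000128602, chromosome 7, 129188872 to 129213545) encodes the membrane protein that carries the signal inward. Its level was 10.9, 10.9 and 11.1 RPKM in control ATII CM and 12.5, 12.1 and 12.4 RPKM in 4-OHT ATII CM. The groups did not overlap, and the gap between them was larger than the range of either. The log2 fold change was 0.17 (SE 0.0401, edgeR adjusted p = 0.0185), a level 12.6% higher with a 95% interval of 6.11% to 19.4%. This call was near its limit: the adjusted p was 0.0592 with DESeq2, 0.0589 without control ATII CM replicate 1, 0.06995 without control ATII CM replicate 3, 0.058 without 4-OHT ATII CM replicate 1 and 0.114 without 4-OHT ATII CM replicate 3. Across these settings the fold change itself stayed between 0.16 and 0.17. A gene on the other strand, ENSG00000243230, shares 129 bases of its exons and had 4 to 6 counts per library.

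*GAS1* (ENSG00000180447, chromosome 9, 86944363 to 86947189) encodes a lipid-anchored co-receptor and has a single exon. Its level was 4.09, 3.88 and 3.28 RPKM in control ATII CM and 4.28, 4.71 and 4.25 RPKM in 4-OHT ATII CM. The groups lay side by side without overlap, with control ATII CM replicate 3 the lowest of all. At 0.24, its log2 fold change was close to that of *BOC*, but its SE was 0.0938 and the adjusted p 0.182 (unadjusted 0.0221, edgeR). Without control ATII CM replicate 3 it was 0.14 (adjusted p = 0.553). With 196 to 332 counts per library, the 95% interval ran from 2.76% to 35.5% higher.

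*PTCH1* (ENSG00000185920, chromosome 9, 95442980 to 95517057) encodes the ligand receptor. Its level was 2.31, 2.13 and 2.36 RPKM in control ATII CM and 2.36, 2.27 and 2.25 RPKM in 4-OHT ATII CM, with overlapping groups. Its log2 fold change was 0.01 (SE 0.0504, edgeR adjusted p = 0.942), and its 95% interval, −6.37% to 8.63%, sets how large a difference these libraries could still hold. Its sign turned without control ATII CM replicate 2 (−0.03) and without 4-OHT ATII CM replicate 1 (−0.0021). *PTCH1* shares 711 exon bases (4.29%) with ENSG00000271155 on the other strand, which had 7 to 19 counts per library beside the 631 to 983 of *PTCH1*.

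*HHIP* (ENSG00000164161, chromosome 4, 144646021 to 144745271) had 0, 0 and 2 counts in replicates 1 to 3 of control ATII CM, and again 0, 0 and 2 counts with 4-OHT ATII CM. A difference between groups was not detectable at this depth. Reads from *HHIP-AS1*, an antisense gene that overlaps 358 bases of its exons, came to 3 to 10 counts per library. Of the 3 customary readouts of Hedgehog activity, then, *HHIP* could not be compared, *PTCH1* had overlapping groups, and *GLI1* is given next.

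*GLI1* (ENSG00000111087, chromosome 12, 57460135 to 57472262) had the lowest level of the measured genes. It was 1.39, 1.35 and 1.31 RPKM in control ATII CM and 0.956, 1.30 and 1.03 RPKM in 4-OHT ATII CM. Every library of 4-OHT ATII CM was below every library of control ATII CM, replicate 2 of 4-OHT ATII CM by little. The log2 fold change was −0.30 (SE 0.132, edgeR unadjusted p = 0.0393, adjusted p = 0.254), with a 95% interval from −33.1% to −1.15%. It was not called in any of the 13 alternative settings, whose fold changes ran from −0.44 to −0.21. The counts behind it were 88 to 136 per library, the fewest of the measured genes, and 8 of its exon bases overlap *ARHGAP9* on the other strand.

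*GLI2* and *GLI3* encode the other GLI factors. *GLI2* (ENSG00000074047, chromosome 2, 120735623 to 120992653) was at 5.91, 5.58 and 5.84 RPKM in control ATII CM and 5.84, 6.15 and 5.72 RPKM in 4-OHT ATII CM. *GLI3* (ENSG00000106571, chromosome 7, 41960950 to 42237870) was at 2.85, 2.65 and 2.88 RPKM in control ATII CM and 2.70, 2.75 and 2.78 RPKM in 4-OHT ATII CM. The groups overlapped for both genes. The log2 fold change of *GLI2* was 0.03 (95% interval −0.07 to 0.13, edgeR adjusted p = 0.815), and without 4-OHT ATII CM replicate 2 it was −0.0021. That of *GLI3* was −0.03 (95% interval −0.14 to 0.08, edgeR adjusted p = 0.856). With control ATII CM replicate 2 left out, the fold change was 0.0069 for *GLI2* and −0.06 for *GLI3*, neither called. With each library left out in turn, that of *GLI3* ran from −0.06 to −0.01.

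*SUFU* (ENSG00000107882, chromosome 10, 102503987 to 102633535) encodes the protein that binds and restrains the GLI factors. Its level was 4.92, 4.61 and 5.14 RPKM in control ATII CM and 5.25, 4.99 and 5.198 RPKM in 4-OHT ATII CM. Replicate 2 was the lowest in each group, and the ranges overlapped. *SUFU* had a log2 fold change of 0.07 (95% interval −0.04 to 0.18, edgeR adjusted p = 0.556), and 0.03 when control ATII CM replicate 2 was left out.

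**Figure D2:**
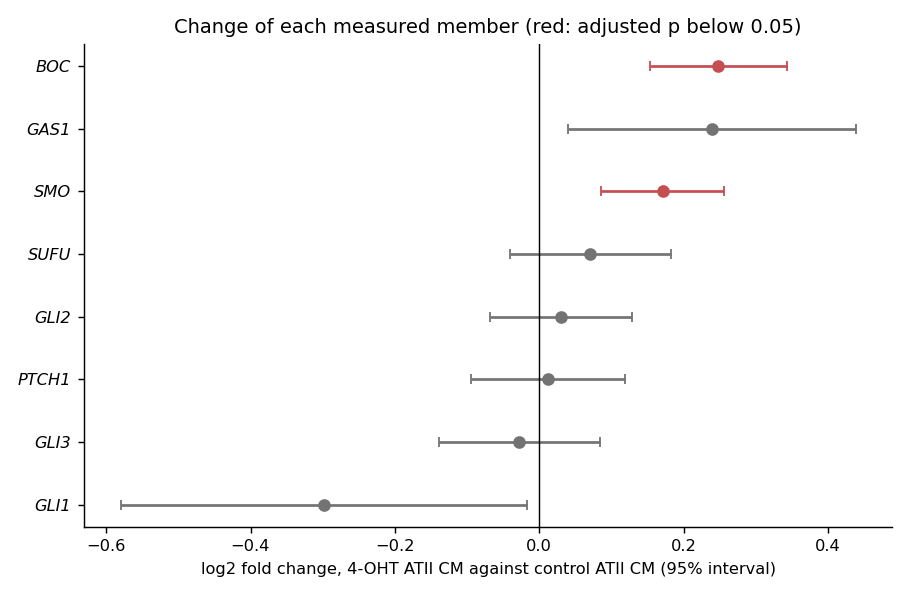
Log2 fold change of each measured gene in 4-OHT ATII CM against control ATII CM with its 95% interval, red where the adjusted p was below 0.05. *BOC* and *SMO* are the called genes, and the interval of *GLI1*, from −0.58 to −0.02, is the widest.

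Compared per exon length, the 8 genes spanned from 1.22 RPKM for *GLI1* to 11.6 RPKM for *SMO*, as means over all 6 libraries. Between them came *GLI2* (5.84 RPKM), *SUFU* (5.02 RPKM), *BOC* (4.96 RPKM), *GAS1* (4.08 RPKM), *GLI3* (2.77 RPKM) and *PTCH1* (2.28 RPKM). *SMO* was thus the most abundant Hedgehog component of these fibroblasts and its inhibitory receptor one of the least. In control ATII CM no neighbours in this order overlapped over the libraries. In 4-OHT ATII CM *SUFU* (4.99 to 5.25 RPKM) and *BOC* (5.11 to 5.62 RPKM) overlapped, so that their order was not resolved there.

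**Figure D3:**
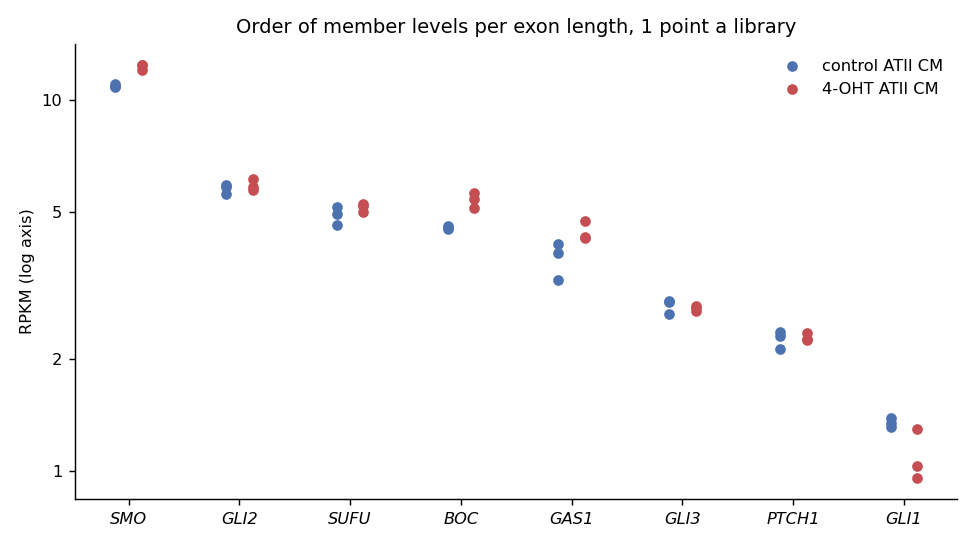
RPKM on a log axis of the 8 measured genes in order of their mean, with 1 point per library, blue for control ATII CM and red for 4-OHT ATII CM. *SMO* lies highest in every library and *GLI1* lowest, and only *SUFU* and *BOC* in 4-OHT ATII CM share a range with their neighbour.

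Ratios between pairs of these genes within a library do not depend on library size. Their absolute values depend on the exon lengths, whereas the log2 differences between groups do not. The ratio of the activator *GLI2* to *GLI3* was 2.07, 2.101 and 2.03 with control ATII CM, beside 2.16, 2.23 and 2.06 with 4-OHT ATII CM, and the groups overlapped (log2 difference 0.06, exact two-sided permutation p = 0.3). With single libraries left out, this difference ran from 0.0282 to 0.0883. The ratio of *PTCH1* to *SMO* was 0.212, 0.196 and 0.214 with control ATII CM, beside 0.189, 0.188 and 0.181 with 4-OHT ATII CM. All 3 ratios were lower in 4-OHT ATII CM (log2 difference −0.15, exact two-sided permutation p = 0.1), which is the smallest p that this test can give with 3 libraries against 3, so it cannot reach 0.05 here. The ratio of *BOC* to *GAS1* was 1.10, 1.17 and 1.40 with control ATII CM, beside 1.19, 1.15 and 1.32 with 4-OHT ATII CM (log2 difference 0.0056, exact p = 1). Adjusted over these 3 ratios by the Benjamini-Hochberg method, the p values were 0.45, 0.3 and 1.

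**Figure D4:**
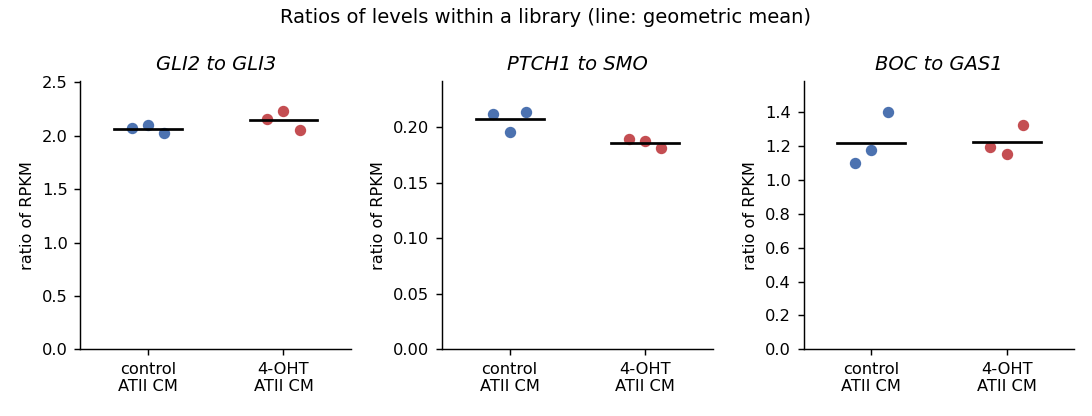
Ratio of RPKM within each library for *GLI2* to *GLI3*, *PTCH1* to *SMO* and *BOC* to *GAS1*, with 1 point per library, blue for control ATII CM and red for 4-OHT ATII CM, and a line at the geometric mean, on axes that start at 0. The *PTCH1* to *SMO* points of 4-OHT ATII CM (0.181 to 0.189) lie below those of control ATII CM (0.196 to 0.214).

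On the ligand side, 8 of 13 genes were measured, and 1 was called higher and 0 lower, where 2.95% of all genes were called higher and 2.76% lower. No Hedgehog ligand was measured: *SHH* and *DHH* had 2 counts each over all libraries and *IHH* had 0. *SCUBE3*, a member of the secreted family that helps lipid-modified ligand leave the producing cell, was 9.70, 8.65 and 9.88 RPKM in control ATII CM and 10.98, 11.7 and 11.5 RPKM in 4-OHT ATII CM. Its groups did not overlap (log2 fold change 0.27, SE 0.0482, edgeR adjusted p = 0.0030), and it stayed called in all 13 alternatives. *HHAT*, which attaches palmitate to the ligand, was second in level (1.19 ± 0.180 against 1.23 ± 0.141 RPKM, SD, n = 3 each), with a log2 fold change of 0.06 (edgeR adjusted p = 0.859) whose sign turned without control ATII CM replicate 1 (−0.06) and without 4-OHT ATII CM replicate 2 (−0.0070). *CDON*, the close relative of *BOC*, was far lower than it, at 0.112 ± 0.0126 and 0.0995 ± 0.0251 RPKM. *LRP2* and *GPC3*, whose products bind ligand, had 0 and 1 counts in all. *CDON* was chosen after its values were seen. Over the 8 genes the median log2 fold change was 0.05. Leaving out control ATII CM replicate 1 made it −0.06, and leaving out 4-OHT ATII CM replicate 2 made it −0.09.

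Between SMO and the GLI factors, all 25 listed genes were measured and none was called by edgeR (0 up, 0 down, beside 2.95% and 2.76% of all genes). With 4 of 25, the share with an unadjusted p below 0.05 was near the 17.3% of all genes. DESeq2 and limma-voom also called none. The most abundant were *PRKAR1A*, a regulatory subunit of protein kinase A (40.2 ± 0.457 against 41.7 ± 0.977 RPKM, edgeR adjusted p = 0.422), and *CSNK1A1*, a casein kinase (27.9 ± 1.06 against 29.1 ± 0.422 RPKM, edgeR adjusted p = 0.46). Protein kinase A and this casein kinase phosphorylate GLI proteins, the former through subunits other than the regulatory one. The 4 genes with an unadjusted p below 0.05, chosen after their values were seen, were *GPR161*, a ciliary receptor that restrains the pathway (log2 fold change 0.15, edgeR adjusted p = 0.0636), the arrestin genes *ARRB1* (0.14, 0.181) and *ARRB2* (−0.27, 0.129), and *SPOP*, an adaptor for GLI degradation (0.10, 0.272, and 0.05 when control ATII CM replicate 1 was left out). *GPR161* was called without control ATII CM replicate 1 (adjusted p = 0.0484) and without the filter on low counts (0.0226). Over the 25 genes the median log2 fold change was 0.02, and it was 0.0093 when control ATII CM replicate 1 was left out and 0.0104 when replicate 2 was.

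Genes reported as GLI targets gave 5 calls among 14 measured of 15, with 4 up and 1 down, where 2.95% of all genes were called higher and 2.76% lower. Of the 14, 9 had groups that did not overlap, beside 22.1% of all genes, and 8 had an unadjusted p below 0.05, beside 17.3%. *BMP4*, a secreted growth factor, was 92.6, 91.4 and 87.2 RPKM in control ATII CM and 109.8, 117.3 and 114.9 RPKM in 4-OHT ATII CM (log2 fold change 0.34, SE 0.036, edgeR adjusted p = 4.6e-05). Of 3 forkhead genes on the list, *FOXL1*, named after its values were seen, was not called (27.4 ± 2.06 against 26.8 ± 0.762 RPKM, log2 fold change −0.03, edgeR adjusted p = 0.816), and the lung mesenchyme factors *FOXF2* and *FOXF1* rose. *FOXF2* went from 67.3 ± 2.62 to 76.8 ± 2.55 RPKM (log2 fold change 0.19, edgeR adjusted p = 0.0083) and *FOXF1* from 108.8 ± 2.96 to 120.4 ± 3.30 RPKM (0.15, edgeR adjusted p = 0.0154). The transcription factor gene *OSR1* rose from 8.16 ± 0.207 to 9.19 ± 0.327 RPKM (0.17, edgeR adjusted p = 0.0297). *CCND1*, which encodes cyclin D1 and drives entry into S phase, fell from 174.2 ± 2.55 to 156.8 ± 1.06 RPKM (log2 fold change −0.15, edgeR adjusted p = 0.0033). *IGFBP6*, the highest of the list in RPKM beside *CCND1*, was at 161.1 ± 6.73 and 174.8 ± 2.60 RPKM (0.12, edgeR adjusted p = 0.0758). Whether GLI activity had a part in these values was not tested. Over the 14 genes the median log2 fold change was 0.02, and 0.0123 when 4-OHT ATII CM replicate 3 was left out.

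The 4 calls upward rest partly on single libraries: there were 2 without control ATII CM replicate 1, 1 without 4-OHT ATII CM replicate 2 and 2 without 4-OHT ATII CM replicate 3, while without control ATII CM replicate 2 there were 6. *BMP4* and *CCND1* stayed called in all 13 alternatives, *FOXF2* in 12, *FOXF1* in 10 and *OSR1* in 8. *IGFBP6* was called in 3: with limma-voom (adjusted p = 0.045), with no filter on low counts (0.0179) and when control ATII CM replicate 2 was left out (0.0029, log2 fold change 0.15).

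The primary cilium, where PTCH1 and SMO act, was covered by 53 transport and transition zone genes, all measured. edgeR called 0 of them in either direction, beside 2.95% of all genes called higher and 2.76% lower, and 7 of the 53 had an unadjusted p below 0.05, beside 17.3%. DESeq2 and limma-voom called 0 too. The 2 highest were *TCTN3*, of the transition zone (15.0 ± 0.505 against 13.7 ± 0.253 RPKM, log2 fold change −0.13, edgeR adjusted p = 0.102), and *IFT52*, of the intraflagellar transport B complex (13.5 ± 0.723 against 14.5 ± 0.677 RPKM, 0.11, edgeR adjusted p = 0.312). Their median log2 fold change was 0.05, which became 0.0163 when 4-OHT ATII CM replicate 3 was left out and 0.0277 when control ATII CM replicate 3 was. When control ATII CM replicate 2 was left out, 1 cilium gene was called higher (*BBS2*) and 3 lower (*IFT172*, *DYNC2H1* and *KIAA0586*), and *CLUAP1* was called higher without 4-OHT ATII CM replicate 1 and without the filter on low counts. These 5 genes were named after their calls were seen.

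**Figure D5:**
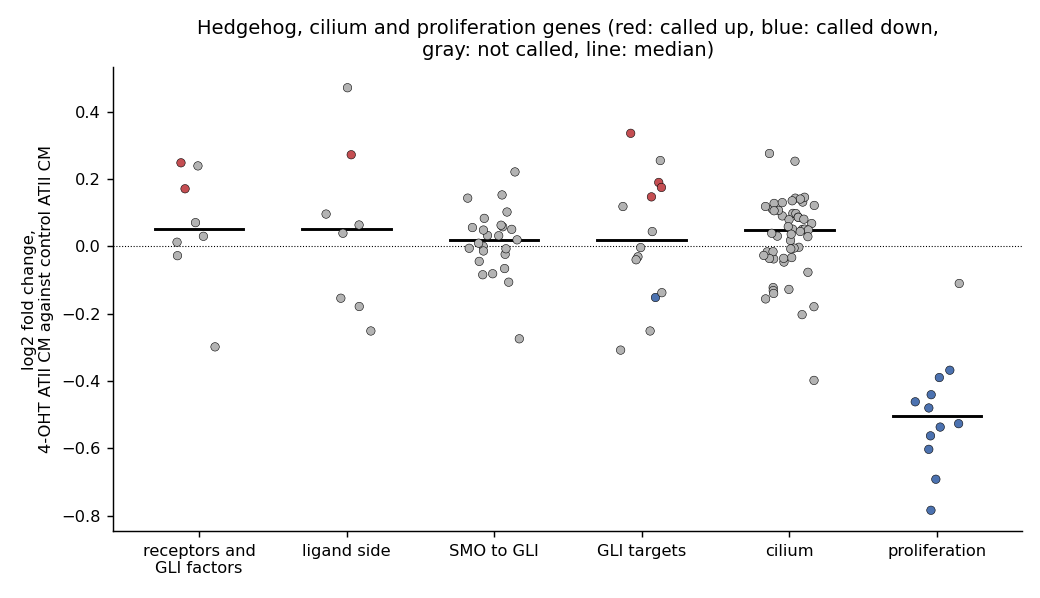
Log2 fold change of the measured genes of each list, 1 point per gene, red for genes called higher and blue for genes called lower in 4-OHT ATII CM, gray for genes not called, with a line at the median. The receptor, ligand, transduction, target and cilium lists lie around 0 with 7 red points and 1 blue point (*CCND1*) in all, and 11 of the 12 proliferation genes are blue.

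Proliferation genes moved in the same comparison. Of 12 measured, 11 fell, where 2.76% of all genes were called lower, with a median log2 fold change of −0.50, and their summed level was 408.9 to 435.5 CPM in control ATII CM and 292.8 to 322.3 CPM in 4-OHT ATII CM. *MKI67*, a marker of cycling cells, fell from 3.24 ± 0.359 to 1.89 ± 0.0700 RPKM (log2 fold change −0.78, edgeR adjusted p = 1.01e-05), and *TOP2A*, a DNA topoisomerase of dividing cells, from 15.3 ± 0.640 to 10.4 ± 0.711 RPKM (−0.56, edgeR adjusted p = 8.82e-06). *RRM2*, *BUB1* and *AURKB* fell by 0.54, 0.60 and 0.69 on the log2 scale. *PCNA*, the highest of the list, was at 46.8 ± 1.41 and 43.4 ± 2.91 RPKM (−0.11, edgeR adjusted p = 0.242, and −0.07 when 4-OHT ATII CM replicate 2 was left out), and *CCNB1*, next in level, fell by 0.53. The part of this shift in the values of *BOC*, *SMO* and *CCND1* was not tested. In such bulk libraries, fewer cells of a kind and less RNA per cell cannot be told apart.

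Markers of cell types also moved in part. Of 10 fibroblast markers, all measured, 4 rose (*DCN*, *LUM*, *COL3A1* and *PDGFRA*) and 1 fell (*VIM*), where 2.95% of all genes were called higher and 2.76% lower, and their summed level was 41100 to 44610 CPM in control ATII CM and 42970 to 44710 CPM in 4-OHT ATII CM. Of 10 epithelial markers 4 were measured and none was called by edgeR (0 with an unadjusted p below 0.05), with a summed level of 9.51 to 11.5 CPM against 8.34 to 9.41 CPM. Of 5 endothelial markers 3 were measured, and the list summed to 120.7 to 138.4 CPM in control ATII CM and 162.7 to 171.9 CPM in 4-OHT ATII CM. *TEK*, a receptor tyrosine kinase gene that made up nearly all of that sum, rose (log2 fold change 0.37, edgeR adjusted p = 0.00016), whereas the defining genes *PECAM1* and *CDH5* were at 0 in every library. None of 5 immune markers was measured.

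*BOC* had the smallest p of the 8 receptor, inhibitor and GLI genes, and the genes whose log2 CPM was most like it over the 6 libraries were *ZNF853* and *NR2F1-AS1* (Pearson r = 0.995 for both), *HSPA2* (r = 0.993), *PLSCR1* (r = 0.991) and *SKAP2* (r = 0.991). Of the 13050 genes with a mean of at least 1 CPM, 543 had an r above 0.9. The points are 3 libraries of each of 2 groups, and a difference between the groups is enough to give a high r. *HSPA2*, a heat shock protein of the HSP70 family, was 62.6, 62.0 and 63.1 CPM in control ATII CM and 71.98, 74.8 and 77.8 CPM in 4-OHT ATII CM. Its order of libraries within 4-OHT ATII CM was that of *BOC*, as for the other genes named here, all picked for their r.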

How the data were processed

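RNA-Seq of 6 MRC5 libraries was analysed. Per the submitters' processing notes, adapters were removed with Trim Galore, alignment to GRCh38 used HISAT2 2.1.0 and counting used featureCounts 1.6.5. The table the authors deposited holds raw counts per gene, without normalization, and a merged exon length in bases. The strand setting and the treatment of reads with several locations are not given in the sources used here, so that genes overlapping on opposite strands are less certain. Lines of the 45 identifiers with a pair of lines were added. Symbols came from GENCODE, which named 18962 of the 19072 genes tested, those with a sum of at least 10 counts.

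Counts were tested with edgeR 4.0.16 (R 4.3.3) after TMM, with group as the only term, and alternatives used DESeq2 1.42.0, limma 3.58.1 voom, other scaling and filters, each library left out, and a replicate block. The fits were tested on simulated data. SEs were derived from each fold change and its F statistic, and log2 CPM for components and correlations used a prior count of 2. Replicates of a group differed beyond counting noise (chi-square per degree of freedom 2.04 to 5.56), and the biological coefficient of variation was 4.36%. Beside the members, the text names called genes of each list (at most 5 per direction), the 2 with the highest RPKM, and the 5 genes most like the member of smallest p. Results of some listed genes are not reported here. Members and lists were chosen with earlier results of these data known.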

Additional observations from a re-analysis of the deposited data

How the results depend on the processing

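Of the 8 measured genes, *BOC* was called in all 13 alternatives, *SMO* in 8, and the other 6 in none. With DESeq2, 1 of them was called higher and the log2 fold change of *SMO* was 0.17 (adjusted p = 0.0592). With each library left out in turn, 1 to 2 were called higher, *SMO* lay between 0.16 and 0.18, and genes called in all numbered 533 to 1530, beside 1090 in the full comparison. The full count was 954 with DESeq2, 1132 with limma-voom and 1601 without the filter on low counts, of which 875 were higher. With single libraries left out the sign turned for *GLI2* (−0.0021 to 0.0501), *PTCH1* (−0.0281 to 0.0384), *HHAT* (−0.0601 to 0.153) and *CDON* (−0.328 to 0.0143), none of them called. The log2 difference of the *BOC* to *GAS1* ratio ran from −0.0692 to 0.106, below 0 when replicate 1 or 2 of control ATII CM, or replicate 3 of 4-OHT ATII CM, was left out. The cause was not tested.

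Same-numbered libraries did not deviate together (correlations −0.01, −0.10 and −0.09 over 9691 genes), and control ATII CM replicate 3 correlated best with 4-OHT ATII CM replicate 2 (0.161). These values gave no sign that equal numbers mark pairs, but they cannot show how the libraries were prepared. With the replicate block, 985 genes were called, 2 of the 8 Hedgehog genes among them, and *BOC* (0.25) and *SMO* (0.17) stayed called. Depth limits *GLI1* most among the measured genes: with 88 to 136 counts per library its SE was 0.132, the largest of the 8.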
